A study of Mus musculus with 6 samples.

Results

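The 36 mouse genes described here belong to 2 linked systems, the secretory pathway and the unfolded protein response, and were followed through 2 fractions of sorted bone marrow cells. The 36 genes were taken by symbol from the 30803 rows of each library's table, and all of them had a row and passed the minimum level for testing, which left 12295 genes in all. The cells were labelled hematopoietic stem cells (HSCs) and came from the bone marrow of wild-type (WT) mice at 5 months of age, labelled Ctrl and housed under specific pathogen-free conditions. They were sorted into a group with low MHC class II (MHCII-lo, 3 libraries) and a group with high MHC class II (MHCII-hi, 3 libraries), and a stranded mRNA library was sequenced for each sample. The comparison asked how the MHCII-hi fraction differs from the MHCII-lo fraction, and these genes bear on it because antibody transcripts were far more abundant in MHCII-hi. The sources used here do not give the markers of the stem cell gate or say whether libraries came from separate animals, so a p-value speaks only of the scatter among these 6 libraries, which may be technical.

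Proteins bound for the cell surface, the lysosome or the outside enter the endoplasmic reticulum (ER) through the Sec61 channel, lose their signal peptide to signal peptidase, and fold with the help of chaperones and disulfide isomerases. Proteins that fail to fold are drawn back into the cytosol and destroyed, a route called ER-associated degradation. When unfolded protein builds up, the sensors IRE1, PERK and ATF6 switch on the unfolded protein response, which slows translation and raises the genes for folding and degradation. Antibody-secreting plasma cells are known for a large ER and depend on the IRE1 target XBP1, and blood stem cells are known for low protein synthesis.

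Levels are read as FPKM, fragments scaled to the length of the transcript and the size of the library. The values themselves were the ground for naming that unit, and read depth is unknown. The total FPKM of a library lay between 305934 and 306945 in MHCII-lo and between 333347 and 333530 in MHCII-hi. Jchain, the joining chain of secreted IgA and IgM, stood at 19.80, 16.43 and 16.55 FPKM in the MHCII-lo libraries and at 343.67, 337.21 and 342.86 FPKM in the MHCII-hi libraries. The antibody light chain Igkc and heavy chain Igha were 31.9-fold and 39.3-fold higher in MHCII-hi. The label of the cells was checked on 12 stem cell markers. Kit was present at 10.9 ± 0.0306 FPKM in MHCII-lo against 10.8 ± 0.208 FPKM in MHCII-hi (SD, n = 3), but Procr, Slamf1, Mecom and Fgd5 stayed under 1 FPKM in every library, so the defining markers of long-term HSCs were near absent from both groups. In bulk RNA of this kind, fewer cells of a type and less RNA per cell cannot be told apart.

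Most of the folding and entry machinery was lower in MHCII-hi, while the ubiquitin ligase of ER degradation, the stress-induced Herpud1 and Dnajb9, and 4 of the 5 stress sensors and transcription factors were higher. Of the 36 genes, 27 fell, 7 rose and 2 did not pass the test (limma, Benjamini-Hochberg adjusted p under 0.05). Over all 12295 tested genes, 40.5% fell and 27.2% rose, so the share that fell, 75.0%, was above the background and the share that rose, 19.4%, was below it. The median log2 change was -0.34 for the 36 genes and -0.08 for all tested genes. A fall of at least 0.5 on the log2 scale was seen for 10 members, or 27.8%, against a background of 13%, and a rise of that size for 3 members, or 8.33%, against 10.8%. In 34 of the 36 the groups did not overlap, 27 of them with MHCII-hi lower (background 43.3%) and 7 with MHCII-hi higher (background 29.6%). Summed over the 36 genes, the level lay between 2903 and 2926 FPKM in MHCII-lo and between 2368 and 2384 FPKM in MHCII-hi, which is 0.946% to 0.954% and 0.710% to 0.715% of the library total. Rescaling moved the split of calls over all genes, from 40.2% higher among those called to 50.6% with median-of-ratios scaling and 28.9% with equal library totals. The members' median moved with that of all genes, to -0.24 beside -0.00 under the first and to -0.45 beside -0.18 under the second. Of the 34 members past the test, 12 had a log2 change that moved by over 1.5 times under at least 1 of the alternatives run, namely Hsp90b1, Calr, Pdia4, Edem1, Derl2, Sec61a1, Ssr2, Ssr3, Ern1, Atf4, Atf6 and Eif2ak3, and their values there are given with each gene.

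**Figure D1:**
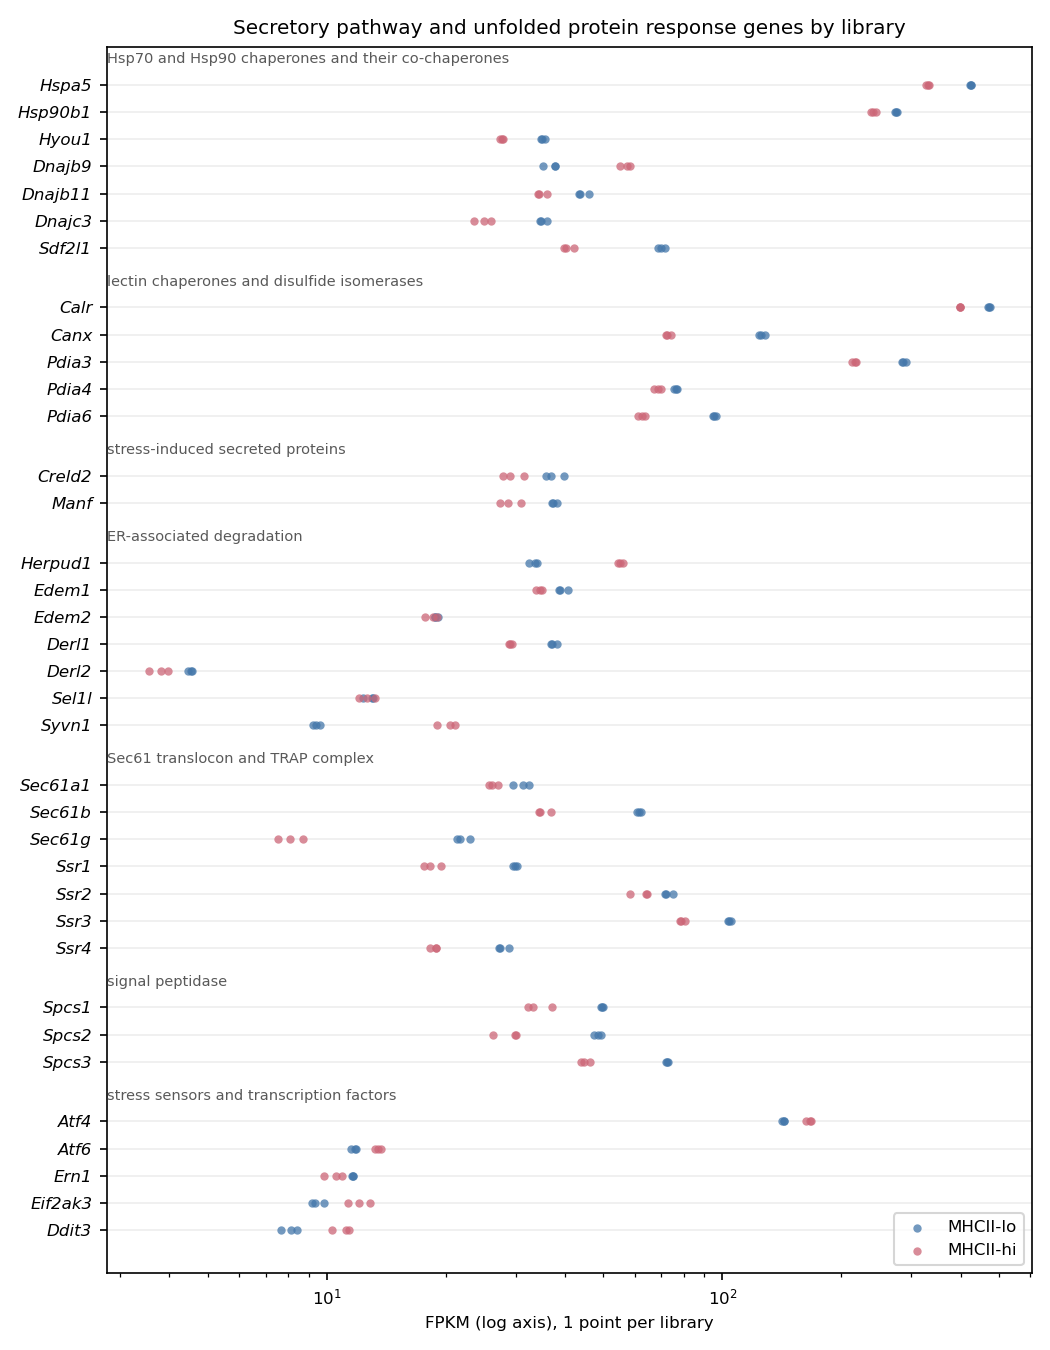
Level of each of the 36 genes in FPKM on a log axis, grouped by role, with 1 point per library (MHCII-lo blue, MHCII-hi red, 3 libraries each). The MHCII-hi points lie to the left of the MHCII-lo points for 27 genes, to the right for 7, and among them for Edem2 and Sel1l.

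Some members share a feature, the ER stress element in their promoters. The members were chosen as genes of the secretory pathway and the unfolded protein response, so how many carry it is not independent of that choice. This element, to which ATF6 and XBP1 are known to bind together with the CCAAT-binding factor NF-Y, reads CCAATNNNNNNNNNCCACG. It was searched on both strands of RefSeq promoters (GRCm38.p6, 250 bases before to 50 after the annotated start). Promoters were listed for 29 of the 36 genes, 30 promoters in all. The element was found in 8 of these genes, against 0.119% of all 32851 promoters of the same length. A second form, ATTGGNCCACG, was found in Herpud1 and Dnajb11 and in 0.0365% of all promoters. The core of the UPR element, TGACGTG, was found only in Hspa5 among the members and in 2.01% of all promoters, and CCAAT alone, which also lies within the first element and, on the other strand, within the second, was in 23 member genes and in 37.4% of all promoters. These are matches of letters, not measured binding.

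The upstream stretches of Hspa5 and Syvn1 are shown first because both carry 1 exact element and the transcripts moved in opposite directions between the fractions. Each is the 250 bases before the annotated start, written 5′ to 3′ on the gene's strand, with the element in capitals.
Hspa5, chr2:34771840-34772089, plus strand: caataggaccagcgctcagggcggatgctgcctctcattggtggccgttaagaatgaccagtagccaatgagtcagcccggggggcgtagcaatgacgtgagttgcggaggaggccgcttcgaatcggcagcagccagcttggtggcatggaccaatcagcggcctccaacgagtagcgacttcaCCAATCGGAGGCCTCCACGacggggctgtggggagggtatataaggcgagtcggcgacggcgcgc
Syvn1, chr19:6046326-6046575, plus strand: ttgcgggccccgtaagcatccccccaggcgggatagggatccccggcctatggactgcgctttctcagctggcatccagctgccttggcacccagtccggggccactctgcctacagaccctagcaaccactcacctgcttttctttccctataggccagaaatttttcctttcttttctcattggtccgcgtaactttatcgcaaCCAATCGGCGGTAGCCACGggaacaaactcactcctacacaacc

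The elements of the other members are shown with 20 bases on either side, so that their spacing and orientation can be compared. Capitals mark the element, which lies on the opposite strand, and so reads from CGTGG to ATTGG, in Calr, Creld2 and the second copy of Hsp90b1. The match in Dnajb11 starts 7 bases after the annotated start and is shown alone.
Hsp90b1, chr10:86705618-86705676, minus strand: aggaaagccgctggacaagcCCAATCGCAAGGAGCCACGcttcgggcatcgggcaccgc
Hsp90b1, chr10:86705513-86705571, minus strand: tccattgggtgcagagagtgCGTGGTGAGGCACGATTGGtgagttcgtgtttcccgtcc
Calr, chr8:84847055-84847113, minus strand: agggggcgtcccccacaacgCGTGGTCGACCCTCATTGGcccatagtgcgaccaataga
Canx, chr11:50325780-50325838, minus strand: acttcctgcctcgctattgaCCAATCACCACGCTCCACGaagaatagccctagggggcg
Pdia6, chr12:17266471-17266529, plus strand: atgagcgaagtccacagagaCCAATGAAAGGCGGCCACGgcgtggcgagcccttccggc
Dnajc3, chr14:118937807-118937865, plus strand: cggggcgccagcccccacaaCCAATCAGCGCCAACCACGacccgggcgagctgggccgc
Creld2, chr15:88819500-88819558, plus strand: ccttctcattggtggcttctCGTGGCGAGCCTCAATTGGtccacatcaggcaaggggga
Herpud1, chr8:94386357-94386407, plus strand: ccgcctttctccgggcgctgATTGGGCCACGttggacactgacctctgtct
Dnajb11, chr16:22857852-22857862, plus strand: ATTGGCCCACG

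Of the 8 genes with the first element, 7 fell (Canx, Pdia6, Dnajc3, Hspa5, Creld2, Calr and Hsp90b1) and Syvn1 rose. Falls were also seen in 75.0% of all 36 members and in 40.5% of all tested genes. This count is therefore not read as a result about the element. With the length and GC trend removed, only Hsp90b1 among the 7 lost its call, as given with that gene. The log2 change of Calr shrank from -0.24 to -0.12 under that correction with the median-length transcript. Of the 2 with the second form, Herpud1 rose and Dnajb11 fell. Genes with the element thus changed from -0.78 to 1.02 on the log2 scale. In Hspa5 and Syvn1 the element ended 47 and 26 bases before the start, and in the other 6 genes the copy nearest the start ended between 80 and 144 bases before it.

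**Figure D2:**
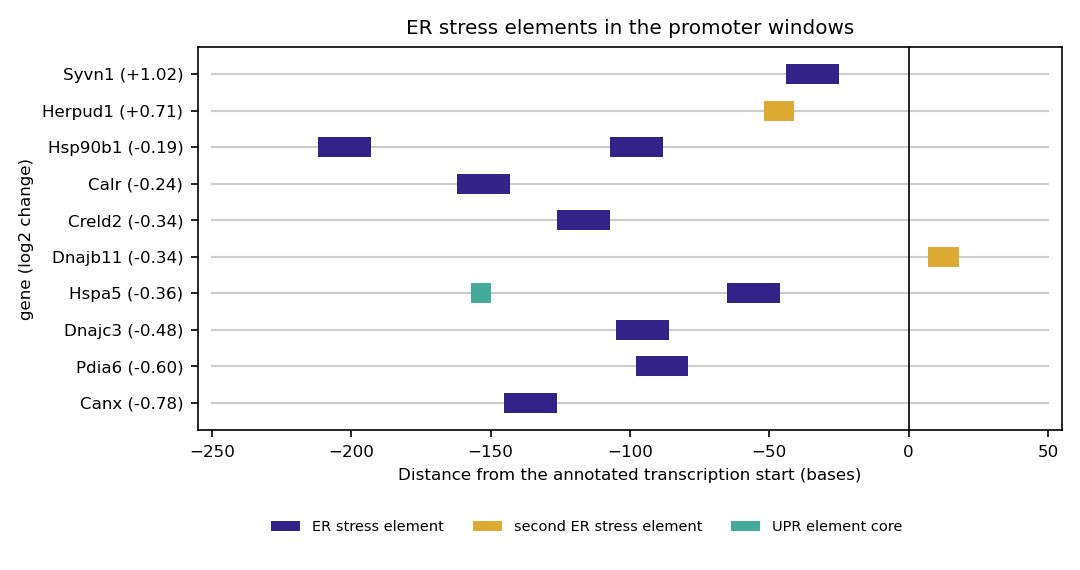
Position of the elements in the 10 promoters that hold the first or second ER stress element, in bases from the annotated transcription start (vertical line), with genes ordered by log2 change (in brackets, MHCII-hi minus MHCII-lo). Syvn1 and Herpud1 rose and the other 8 genes fell, whichever form of the element they carry. Of all 36 members 75.0% fell.

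The Hsp70 and Hsp90 chaperones of the ER and their co-chaperones fell in 6 of 7 cases. Hspa5 encodes BiP, the Hsp70 of the ER lumen that also holds the stress sensors inactive, and was among the most abundant transcripts of the list. It stood at 424.05, 421.77 and 426.24 FPKM in the MHCII-lo libraries and at 331.21, 332.43 and 326.80 FPKM in the MHCII-hi libraries. Every MHCII-hi library was below every MHCII-lo library, and the log2 change was -0.36 ± 0.01 (SE, limma adjusted p = 1.02e-06). Sdf2l1, a partner of the BiP cycle, went from 71.80, 68.87 and 69.80 FPKM to 40.30, 39.87 and 42.21 FPKM. It had the largest fall of these 7 genes, to 0.582 of its MHCII-lo mean. Dnajc3, a J-domain co-chaperone also known as an inhibitor of PERK, went from 34.53, 36.12 and 34.72 FPKM to 24.93, 23.57 and 26.00 FPKM, also without overlap. The other members of this role fell by less, with Hyou1, a large relative of Hsp70, at 0.787, the J-domain protein Dnajb11 at 0.785 and Hsp90b1, the Hsp90 of the ER, at 0.875 of the MHCII-lo mean.

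Dnajb9 alone rose in this role. It encodes ERdj4, a J-domain protein that is a known XBP1 target and represses IRE1. Its level was 37.73, 35.14 and 37.72 FPKM in MHCII-lo against 58.56, 57.53 and 55.14 FPKM in MHCII-hi, a log2 change of 0.62 ± 0.04 (SE, limma adjusted p = 1.17e-05). The groups did not overlap. Set against the BiP transcript within each library, Dnajb9 was 0.0869 ± 0.00314 in the MHCII-lo libraries against 0.173 ± 0.00404 in MHCII-hi (SD, n = 3), a ratio that scaling of a library cannot change. The fall of Hsp90b1 did not hold when a trend of the values with length and GC of the transcript was taken out of each library: under the 3 definitions of a gene's transcript that were tried, its log2 change was 0.02, 0.01 and -0.01 (limma adjusted p = 0.237, 0.599 and 0.579). It was -0.10 with median-of-ratios scaling and -0.31 with equal library totals.

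The lectin chaperones and disulfide isomerases, which fold glycoproteins and form disulfide bonds, fell in all 5 cases. Canx, the membrane-bound lectin calnexin, went from 125.30, 127.89 and 123.87 FPKM to 72.45, 72.11 and 73.95 FPKM, a log2 change of -0.78 ± 0.02 (SE, limma adjusted p = 2.77e-07). Its soluble relative Calr, calreticulin, was the most abundant of the 36 transcripts and went from 469.58, 474.67 and 471.72 FPKM to 397.77, 399.82 and 399.56 FPKM. Both fell without overlap, and calnexin fell more, so that the ratio of Canx to Calr was 0.266 ± 0.00345 in the MHCII-lo libraries against 0.182 ± 0.00238 in MHCII-hi (SD, n = 3). The log2 change of Calr was -0.24 ± 0.01 (SE), and lay between -0.12 with the length and GC trend removed (median-length transcript) and -0.36 with quantile normalization or equal library totals. The isomerase Pdia6 went from 94.88, 96.14 and 95.04 FPKM to 63.90, 62.48 and 61.35 FPKM. Pdia3, which works with both lectins and also serves in MHC class I loading, went from 291.23, 284.81 and 285.84 FPKM to 217.49, 213.06 and 215.80 FPKM. The MHCII-hi libraries were the lower ones for both isomerases. Pdia4 fell least, to 0.902 of its MHCII-lo mean, and its call was lost with median-of-ratios scaling (limma adjusted p = 0.0681) and with the length and GC trend removed by the longest coding transcript (log2 change -0.04, limma adjusted p = 0.186), whereas it was -0.37 by the median-length transcript and -0.27 with equal library totals.

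Creld2 and Manf, small stress-induced proteins that are retained in or released from the ER, both fell. Creld2 was measured at 39.72, 35.89 and 36.98 FPKM in MHCII-lo against 29.13, 31.52 and 27.93 FPKM in MHCII-hi. Manf was measured at 37.36, 38.08 and 37.07 FPKM and 27.43, 30.91 and 28.78 FPKM. Neither gene's groups overlapped, and the limma adjusted p-values were 0.00141 and 0.000335.

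The gates of the ER fell throughout. All 7 genes of the Sec61 translocon and of the TRAP complex, which sits beside the channel and helps signal sequences insert, were lower in MHCII-hi, with a median log2 change of -0.55. Sec61g, the gamma subunit of the channel, had the largest change of all 36 genes, from 22.99, 21.28 and 21.75 FPKM to 8.09, 7.53 and 8.71 FPKM. That is 0.368 of the MHCII-lo mean and a log2 change of -1.34 ± 0.05 (SE, limma adjusted p = 1.97e-06). Sec61b, the beta subunit, went from 62.16, 60.90 and 61.58 FPKM to 36.78, 34.57 and 34.42 FPKM. The pore-forming Sec61a1 changed least of the 3 subunits, from 32.36, 31.28 and 29.64 FPKM to 27.04, 25.74 and 26.13 FPKM. None of the 3 had overlapping groups. The log2 change of Sec61a1, -0.23, was -0.14 with median-of-ratios scaling and -0.35 with equal library totals. The transcripts of the channel's subunits thus changed by unequal amounts: the ratio of Sec61g to Sec61a1 was 0.708 ± 0.0268 in the MHCII-lo libraries against 0.308 ± 0.0219 in MHCII-hi, and that of Sec61b to Sec61a1 was 1.98 ± 0.0840 and 1.34 ± 0.0216 (SD, n = 3).

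Of the 4 TRAP subunits, Ssr1 fell most, from 30.20, 29.90 and 29.54 FPKM to 19.49, 17.65 and 18.24 FPKM, without overlap. Ssr4 was at 0.670, Ssr3 at 0.758 and Ssr2 at 0.857 of the MHCII-lo mean. For Ssr3 the log2 change of -0.40 shrank to -0.20, -0.14 and -0.18 under the 3 length and GC corrections, and for Ssr2 that of -0.22 was -0.13 with median-of-ratios scaling and -0.34 with equal library totals. The signal peptidase subunits Spcs1, Spcs2 and Spcs3 also fell, each by more than 0.5 on the log2 scale. Spcs2 went from 49.37, 48.44 and 47.37 FPKM to 29.93, 26.36 and 30.13 FPKM. Spcs3 went from 72.28, 72.72 and 72.21 FPKM to 44.77, 46.22 and 43.96 FPKM, and Spcs1 from 49.93, 49.49 and 49.25 FPKM to 33.28, 32.25 and 37.00 FPKM. All MHCII-hi libraries lay below the MHCII-lo libraries for the 3 genes, and their summed level in MHCII-hi was 0.634 of that in MHCII-lo, the lowest ratio among the roles.

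**Figure D3:**
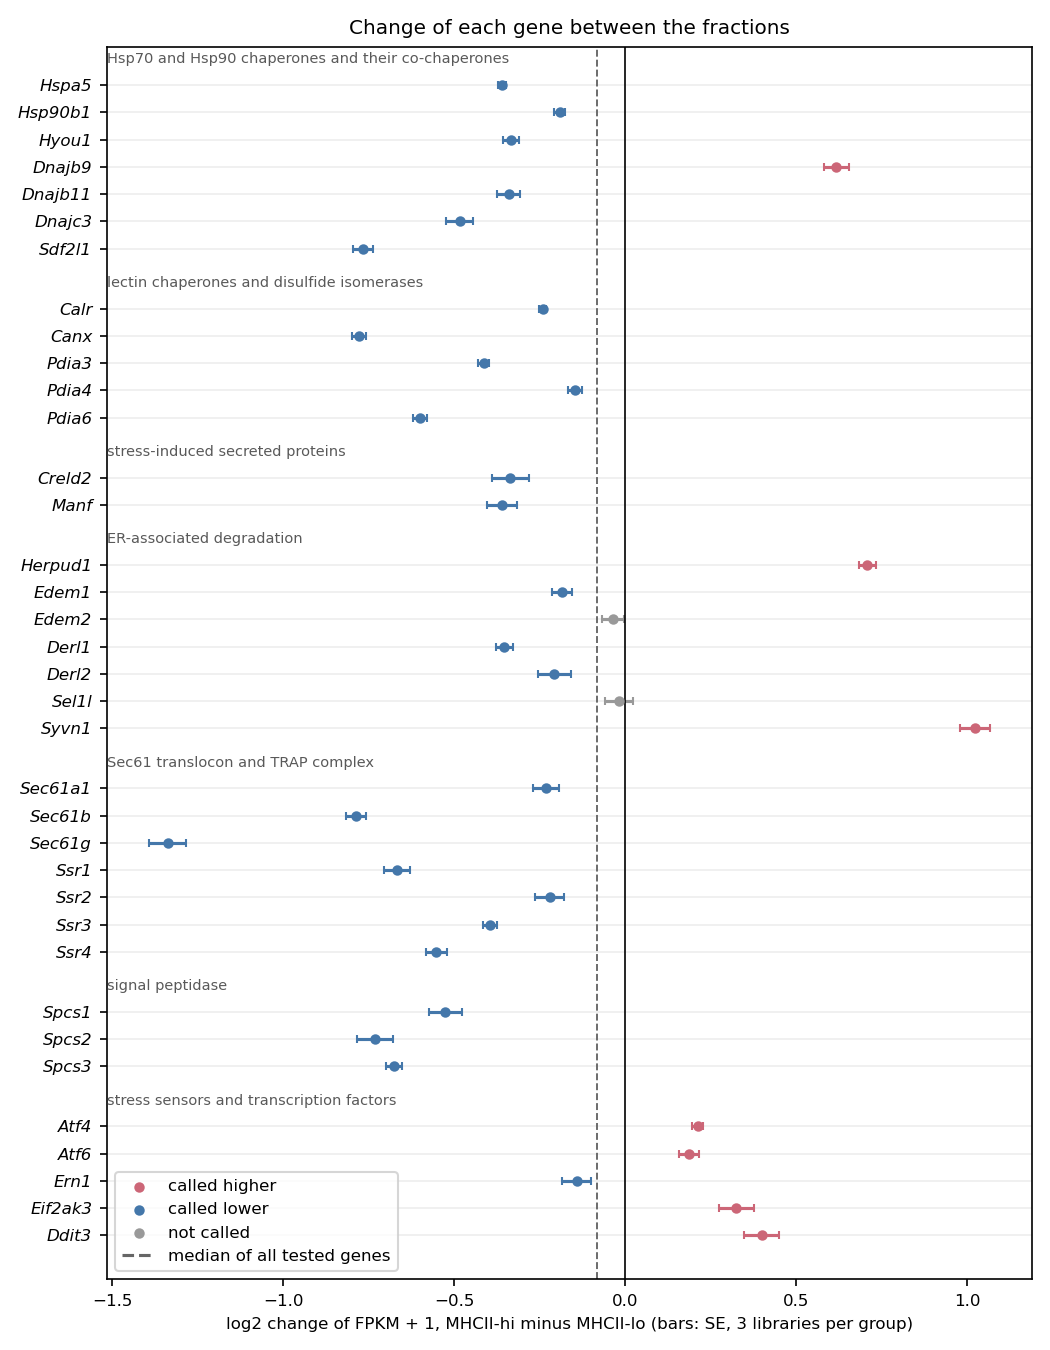
Change of each of the 36 genes as MHCII-hi minus MHCII-lo on the log2(FPKM + 1) scale, with bars for the SE (3 libraries per group) and the dashed line at the median of all tested genes, -0.08. The translocon, signal peptidase and lectin groups lie entirely to the left of that line, from -0.15 for Pdia4 to -1.34 for Sec61g, and Syvn1 lies farthest to the right at 1.02.

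In ER-associated degradation 2 of 7 genes rose (28.6%), 3 fell (42.9%) and 2 did not pass, shares near those over all tested genes (27.2% and 40.5%). Syvn1 encodes HRD1, the membrane ubiquitin ligase at the centre of this route, and it stood at 9.60, 9.40 and 9.25 FPKM in MHCII-lo against 20.43, 18.99 and 21.15 FPKM in MHCII-hi. This was the largest rise of the 36 genes, 2.14-fold (log2 change 1.02 ± 0.04 SE, limma adjusted p = 2.36e-06). Herpud1, a stress-induced adaptor of the same ligase, rose from 34.05, 33.67 and 32.52 FPKM to 55.15, 54.60 and 55.94 FPKM, 1.65-fold (limma adjusted p = 1.05e-06). Both rises were without overlap. Sel1l, the partner that holds HRD1 stable, was measured at 12.98, 13.10 and 12.32 FPKM and 12.09, 12.60 and 13.20 FPKM, with interleaved groups (limma adjusted p = 0.719, log2 change -0.02 ± 0.04 SE). The ratio of Syvn1 to Sel1l was therefore 0.736 ± 0.0169 in the MHCII-lo libraries against 1.60 ± 0.0914 in MHCII-hi (SD, n = 3).

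The other degradation genes were level or lower. Edem2, a mannosidase-like protein that marks glycoproteins for disposal, was at 18.82, 19.06 and 18.80 FPKM in MHCII-lo against 18.58, 19.01 and 17.68 FPKM in MHCII-hi, and did not pass (limma adjusted p = 0.376, log2 change -0.04 ± 0.03 SE). Its relative Edem1 fell from 38.80, 38.58 and 40.68 FPKM to 35.02, 34.68 and 33.75 FPKM. Derl1, a derlin of the retrotranslocation channel, fell from 36.89, 37.15 and 38.27 FPKM to 29.43, 29.02 and 28.80 FPKM. Derl2, another derlin and the least abundant member, fell from 4.45, 4.53 and 4.56 FPKM to 3.82, 3.55 and 3.97 FPKM. The 3 falls were small and without overlap, and removing the length and GC trend ended the call of Derl2 under all 3 transcript definitions (log2 change -0.02, -0.11 and -0.07, limma adjusted p = 0.708, 0.0767 and 0.258) and that of Edem1 under 1 of them (log2 change -0.03, limma adjusted p = 0.398). The log2 change of Derl2, -0.21 as deposited, was -0.13 with median-of-ratios scaling. The log2 change of Edem1 was -0.19 as deposited, -0.09 with median-of-ratios scaling and -0.30 with equal library totals. In GENCODE M21, exons of 8 members overlap those of a protein-coding gene on the opposite strand: Syvn1 (Mrpl49), Derl2 (Mis12), Ddit3 (Mars), Pdia3 (Catsper2), Pdia6 (Atp6v1c2), Spcs1 (Glt8d1), Spcs3 (Asb5) and Manf (Dcaf1). Manf also overlaps Rbm15b on its own strand. The levels of these genes are less certain, since the sources used here do not say whether strand was used in the quantification.

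Among the sensors and transcription factors, the transcripts of Eif2ak3, Atf4, Ddit3 and Atf6 rose and that of Ern1 fell slightly. Eif2ak3 encodes PERK, the kinase that slows translation, and stood at 9.81, 9.15 and 9.35 FPKM in MHCII-lo against 11.31, 12.87 and 12.08 FPKM in the MHCII-hi libraries (limma adjusted p = 0.00131). Atf4, the transcription factor translated when PERK or its sister kinases act, went from 141.84, 142.83 and 143.53 FPKM to 167.42, 163.11 and 166.17 FPKM (limma adjusted p = 3.59e-05). Ddit3, the stress factor CHOP downstream of ATF4, went from 8.10, 7.67 and 8.43 FPKM to 10.28, 11.20 and 11.40 FPKM (limma adjusted p = 0.000453). These 3 genes were higher in every MHCII-hi library, by 1.28-fold, 1.16-fold and 1.36-fold. With equal library totals the log2 change of Atf4 went from 0.21 to 0.09 and that of Eif2ak3 from 0.33 to 0.21. Ddit3 also had a second row at or near 0.

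Atf6, the membrane-bound factor that is cut loose under stress, was at 11.82, 11.51 and 11.80 FPKM in MHCII-lo against 13.46, 13.71 and 13.26 FPKM in MHCII-hi (1.15-fold, limma adjusted p = 0.00121). With all libraries brought to the same total the log2 change was 0.08 and the call was lost (limma adjusted p = 0.0531). Ern1, which encodes IRE1, was at 11.65, 11.64 and 11.57 FPKM and 10.55, 9.85 and 10.93 FPKM and fell by 0.14 on the log2 scale (limma adjusted p = 0.0197). That fall did not hold when any one of the 3 MHCII-lo libraries was left out (limma adjusted p from 0.0512 to 0.0566), with quantile normalization (0.0513) or with median-of-ratios scaling (0.280, log2 change -0.05), and it was -0.25 with equal library totals and -0.22 and -0.29 with the trend removed by the median-length and the longest coding transcript. Activity of the sensors lies in phosphorylation, cleavage and splicing, which these transcript levels do not measure.

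Beyond the 36 genes, 118 other genes of the pathway were listed, of which 111 were tested, 5 were below the minimum, and Hm13 and March6 were not analysed here. Of the 111, 72 fell (64.9%, beside 40.5% of all tested genes), 20 rose (18.0%, beside 27.2%) and 19 did not pass, with a median log2 change of -0.26, beside -0.08 for all tested genes. When all libraries were brought to the same total, 13 rose and 83 fell.

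The unfolded protein signalling genes were mixed, with 2 higher, 2 lower and 3 that did not pass. Xbp1, the factor made active when IRE1 splices its mRNA, stood at 53.54, 54.31 and 54.08 FPKM in MHCII-lo against 66.58, 69.07 and 69.36 FPKM in MHCII-hi, 1.27-fold higher (limma adjusted p = 1.99e-05). Creb3l2, a membrane-bound factor related to ATF6, rose 1.36-fold, while Traf2 and Creb3 fell. Of 14 tested genes of the eIF2alpha and ATF4 branch, 5 rose, 7 fell and 2 did not pass. For both lists the shares over all tested genes were 27.2% higher and 40.5% lower. Ppp1r15a, the stress-induced phosphatase subunit that restores translation (GADD34), rose from 65.4 ± 0.998 to 111 ± 1.06 FPKM, Ddit4, an inhibitor of mTORC1, rose 1.55-fold, and the transcription factor Cebpb rose by 0.58 on the log2 scale. The serine synthesis enzymes Phgdh and Psat1 fell to 0.585 and 0.615 of their MHCII-lo means, and Cebpg to 0.575.

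Falls also prevailed among genes that bring proteins into the ER, fold them and carry them onward. The shares over all tested genes, for comparison with the counts below, were 40.5% lower and 27.2% higher. All 13 tested genes of N-glycosylation and glycoprotein folding fell, led by Tmem258 and Stt3b of the oligosaccharyltransferase complexes and the glucosidase Mogs, at 0.575, 0.594 and 0.604 of the MHCII-lo mean. Of 16 tested targeting and translocation genes 10 fell and none rose, the other 6 not passing. Sec11a, a catalytic subunit of signal peptidase, was at 0.531, and Srp9 and Srp54a of the signal recognition particle were at 0.588 and 0.612 of the MHCII-lo mean. The related Srp54b and Srp54c, at 0.968 and 0.855, did not pass (limma adjusted p = 0.667 and 0.121). Of 22 oxidative folding and other chaperone genes 18 fell, with the ER peroxiredoxin Prdx4 going from 20.8 ± 0.780 to 10.0 ± 0.124 FPKM and Dnajc10 and Tmx1 next, while Txndc5, Txndc11 and Dnajc1 rose by up to 1.17-fold. Of 23 ER to Golgi transport genes 16 fell, among them Tmed9, Sar1b and Sec13, and 4 rose, with the coat subunits Sec24b and Sec24a and the scaffold Sec16a leading at 1.23-fold, 1.25-fold and 1.19-fold.

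Further ER degradation genes again moved both ways, with 6 higher, 6 lower and 4 not past the test. Over all tested genes 27.2% were higher and 40.5% lower. Derl3, a derlin known from secretory cells, had the largest rise of the 111, from 0.85, 0.52 and 0.73 FPKM in MHCII-lo to 6.87, 6.98 and 6.01 FPKM in MHCII-hi, 9.46-fold. Aup1, which recruits an E2 enzyme to the HRD1 complex, rose 1.44-fold and Edem3 1.46-fold. Vcp, the ATPase that pulls substrates out of the membrane, fell from 96.5 ± 2.48 to 59.7 ± 1.47 FPKM, and its cofactors Svip and Selenos fell to 0.501 and 0.669 of their MHCII-lo means.

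Markers of several cell types moved in the same comparison, in which 27.2% of all tested genes rose and 40.5% fell. The summed level of 10 plasma cell markers lay between 46.9 and 50.1 FPKM in MHCII-lo and between 458 and 465 FPKM in MHCII-hi, with 9 of the 10 higher and none at 0 in a whole group. Jchain made up most of the sum in MHCII-hi, and Mzb1, an ER co-chaperone of antibody-forming cells, rose 9.86-fold. Of the B cell markers, 9 of 10 rose and Fcer2a was under the minimum, and the sum went from between 24.4 and 27.0 to between 183 and 189 FPKM. All 8 markers of early granulocyte and monocyte progenitors fell, with sums of 4370 to 4448 FPKM in MHCII-lo and 3015 to 3047 FPKM in MHCII-hi. Erythroid markers fell in 9 of 10 cases, from sums of 999 to 1025 to sums of 696 to 721 FPKM, and 9 of 10 neutrophil markers rose, from about 13820 to about 21030 FPKM. Of the stem cell markers, 6 of 8 tested rose, with sums of 44.9 to 45.3 FPKM in MHCII-lo and 75.0 to 77.9 FPKM in MHCII-hi. Mast cell and basophil markers rose in 4 of 6 cases, from sums of 637 to 651 to sums of 1045 to 1059 FPKM. Of 9 tested dendritic cell and macrophage markers 7 rose and 2 fell, of 8 T and NK cell markers 6 rose and 2 fell, and of 4 tested megakaryocyte markers 1 rose. The part of these cell types in the levels of the 36 genes was not tested.

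**Figure D4:**
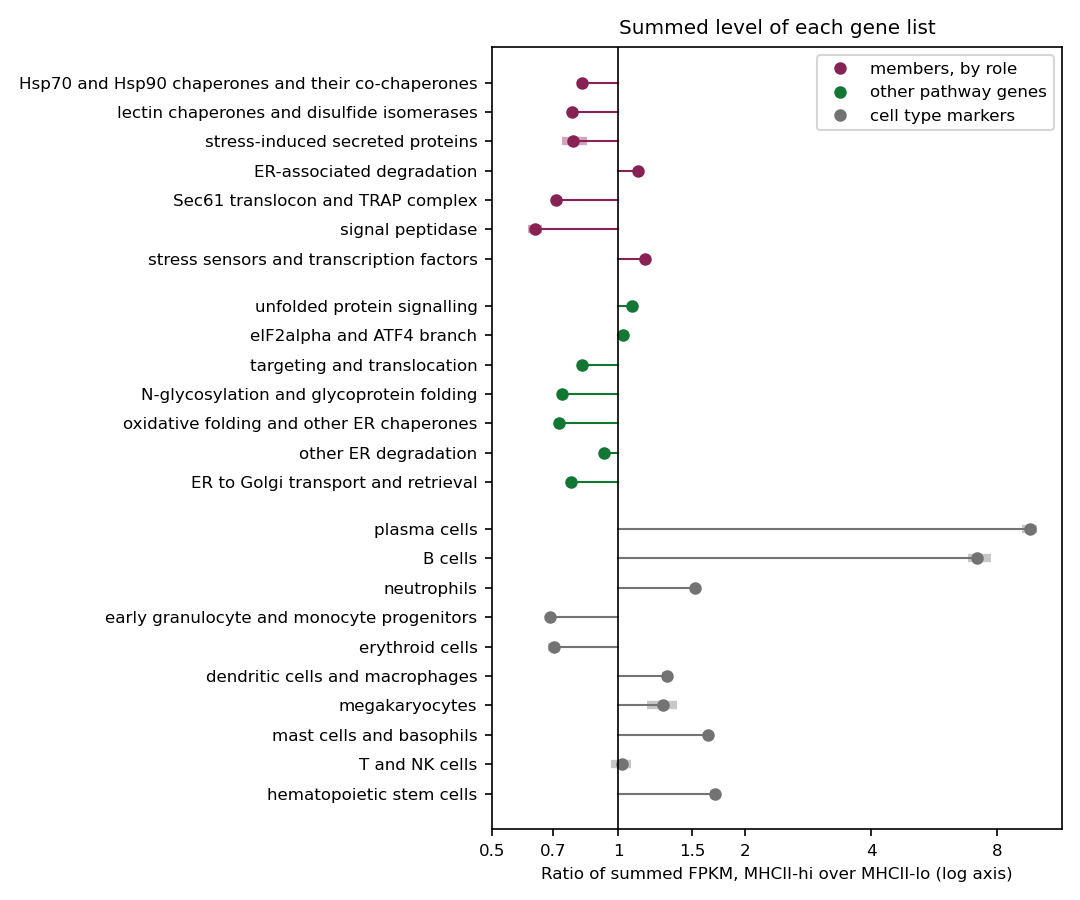
Ratio of the summed FPKM of each gene list, MHCII-hi over MHCII-lo, on a log axis, with the thin line running from 1 to the ratio of group means and the pale bar spanning the lowest to the highest ratio between single libraries. The plasma cell and B cell lists stand at 9.57 and 7.17, the stress sensors at 1.16 and ER degradation at 1.12, and the other 5 roles of the 36 genes between 0.634 and 0.821. Atf4 made up 165.6 of the sensors' 212.5 FPKM in MHCII-hi. In the ER degradation role only Herpud1 and Syvn1 rose and 3 of 7 genes fell, and the list of other ER degradation genes stands at 0.924.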

How the data were processed

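Stranded mRNA libraries were made from column-purified RNA of sorted cells, per the labels' protocols. Tools listed in the submitters' processing notes are HISAT2, StringTie and fastp, with builds mm10 and GRCm38; the sources used here give no versions or settings. Each deposited table holds 1 value per gene symbol, read as FPKM scaled by the authors to library size and transcript length, since the values have decimals and unequal totals. For symbols on more than 1 row (67), the row with the highest mean was used.

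The 12295 genes whose 6-library mean reached 1 FPKM were tested on log2(FPKM + 1), MHCII-hi minus MHCII-lo, with limma 3.58.1 in R 4.3.3 (moderated variances following the mean level, two-sided, p adjusted over all tested genes by Benjamini-Hochberg, threshold 0.05). On this scale the changes of low genes are understated; folds are ratios of mean FPKM. Libraries are named in replicate order 1, 2, 3. The fit was tested on simulated data. Transcript lengths and GC content came from GENCODE M21 and promoters from the RefSeq table. Protein sequences were not used here.

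The members, gene lists and tests were chosen with earlier results of these data known. Library values were given for up to 3 members per role and direction with the largest changes, for all sensors and for members that did not pass; Xbp1 and up to 3 other pathway genes per list and direction were named by size of change. Calr and Sec61a1, and the ratios within a library, were added after their values were seen. Alternatives were pseudocounts of 0.1 and 0.01, no filter or a mean of at least 5 FPKM, quantile and median-of-ratios scaling, removal of immunoglobulin segments, no variance trend, array weights, a replicate block, removal of the length and GC trend and each library left out. Where immunoglobulin segments were removed, the rest of each library was rescaled to the same total. Equal library totals, taken over all genes, were added after seeing the data. The gene's transcript for the length and GC trend was first the one of median length. After those results were seen it was redefined, first as the coding transcript of median length and then as the longest coding one. All 3 are reported, in that order. Python 3.11.15, pandas 2.3.3 and matplotlib 3.10.9 were used.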

Additional observations from a re-analysis of the deposited data

How the results depend on the processing

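Across the 20 alternatives 24 to 29 of the 36 genes fell and 6 or 7 rose, and leaving out 1 library gave 26 to 27 and 7. Of 719 single-gene values, 695 kept their direction and side of the threshold. Calls were lost for Hsp90b1, Pdia4, Edem1, Derl2, Ern1 and Atf6 under the settings given with each. Which calls fell away with the length and GC trend removed depended on how a gene's transcript was defined: Hsp90b1 changed sign to 0.021 with the median-length transcript and 0.0091 with the median-length coding one, and stayed at -0.010 with the longest coding one. Edem2 was at 0.0087 with quantile normalization, 0.056 with median-of-ratios scaling and 0.0055 with the longest coding transcript. Sel1l was at 0.023 and 0.070 with those scalings, at 0.0079 with the median-length transcript, and between -0.048 and 0.011 with 1 library left out. The cause was not tested. Edem2 (-0.15) and Sel1l (-0.13) passed as lower with equal library totals, where 13 other pathway genes rose. At a mean of at least 5 FPKM fewer genes were tested and 2210 rose. The replicate block gave 27 members lower and 7 higher, 19 other pathway genes higher and 72 lower, and 3222 and 4809 over all genes. Deviations of same-numbered libraries correlated at 0.0626, 0.0019 and 0.0804, and not every library correlated best with its own number, so the numbers were not taken as pairs. With 3 libraries per group and unknown depth, no counting error could be given.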

Other observations

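Over the 36 members, which share the same 6 libraries, the correlation of log2 change with log10 transcript length was weak. Pearson's r and Spearman's rho were 0.07 and 0.06 with the median-length transcript of each gene, 0.04 and 0.03 with the median-length coding one, and 0.13 and 0.16 with the longest coding one. With the last, Pearson's r over the 12054 tested genes with a length was -0.09. The 3 members of at most 1000 bases, Sec61b, Ssr4 and Ddit3, changed by -0.79, -0.55 and 0.40. The 33 longer members had a median of -0.33, beside -0.07 for the 10056 longer tested genes.

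Abundance spanned a wide range within the pathway. By mean level over the 6 libraries Calr ranked 69, Hspa5 82, Hsp90b1 143 and Pdia3 150 among the 12295 tested genes, whereas the sensors Atf6, Ern1 and Eif2ak3 ranked 3943, 4446 and 4533. The 4 most abundant members fell in MHCII-hi. Atf4 was the exception among the regulators at rank 268. Immunoglobulin segments took 0.392% to 0.458% of the FPKM in MHCII-lo and 8.26% to 8.34% in MHCII-hi. Those segments were also removed and the rest of each library rescaled to the same total. The median log2 change of the 36 genes was then -0.34, beside -0.09 for all remaining tested genes.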
